A study of Caenorhabditis elegans with 12 samples.

Results

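C-type lectin genes of Caenorhabditis elegans were examined after RNA interference (RNAi) against y54g2a.18. This gene is the worm counterpart of BCAP31, which encodes a membrane protein of the endoplasmic reticulum. The members are the genes whose symbol is clec followed by a number and that hold at least 10 counts in total over the 6 libraries of that experiment. Of 264 clec entries in the count table, 194 met this minimum, out of 46891 named entries in all, while 39 had fewer counts and 31 had 0. At the boundary, clec-20, clec-130, clec-164, clec-168 and clec-240 held 10 counts and were kept, and clec-93 with 9 counts and clec-27 with 8 counts were not. RefSeq lists 181 of the members as protein-coding and 13 as pseudogenes.

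C-type lectins are named after a calcium-dependent sugar-binding fold that recognises glycans on cells and microbes in animals. In C. elegans the genes form a large family, and many members encode secreted proteins of the intestine and other surfaces whose transcripts are induced by infection, in part through the p38 kinase PMK-1. For most worm members neither a ligand nor a function is known, and not every domain of the family keeps the residues that bind sugar.

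RNA was taken from whole worms of the wild-type strain N2 after RNAi of y54g2a.18 (3 libraries) and after a control RNAi (3 libraries). All 6 libraries share the N2 background. The labels state neither the target of the control RNAi nor the worms' age or stage. They do not say whether the libraries are separate cultures. The p-values therefore rest on the spread between libraries, which may be technical. The series asks how the gene influences ageing, and it also holds an rpoa-49 RNAi experiment that is not used here. In whole-worm RNA, fewer cells of a type and less RNA per cell cannot be told apart.

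The libraries held 30103422 to 38313344 counts after RNAi and 34561881 to 39492584 counts in controls. The targeted gene Y54G2A.18 had 190, 128 and 90.2 CPM after RNAi against 391, 358 and 409 CPM in controls, where CPM are counts scaled to a common library size by trimmed means. Its log2 fold change, RNAi minus control, was -1.51 with a standard error of 0.25 (edgeR adjusted p = 0.00732). rpoa-49, the target of the other experiment, averaged 30.7 ± 2.89 CPM after y54g2a.18 RNAi and 29.3 ± 1.43 CPM in its controls (SD, n = 3 each). Ribosomal RNA made up 0.0965, 1.34 and 2.06% of counts after RNAi and 1.06, 1.69 and 0.219% in controls, ranges that overlap.

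C-type lectin RNA as a whole was at nearly the same level in both groups. Summed over the 194 members it was 5076, 5139 and 5246 CPM after RNAi against 5147, 4968 and 5383 CPM in controls. The groups overlap, and the mean was 5154 ± 85.9 CPM after RNAi and 5166 ± 208 CPM in controls (SD, n = 3 each). The 6 most abundant members, clec-63, clec-87, clec-47, clec-50, clec-48 and clec-150, carried 57.3 to 58.7% of this sum after RNAi and 60.4 to 61.8% in controls. clec-150 had 197, 261 and 177 CPM after RNAi against 315, 282 and 330 CPM in controls, without overlap but not called (log2 -0.55, edgeR adjusted p = 0.0904, and 0.0159 without RNAi replicate 2). clec-48 and clec-50 gave log2 fold changes of -0.19 and -0.11 (adjusted p = 0.45 and 0.793). None of the 6 was called, so the changes described next lie mostly in genes of low and middle level.

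Of the 194 members 144 had enough counts to be tested, and 28 were called at an adjusted p under 0.05 in edgeR, against 8.98% of all 14290 tested genes. Of these, 10 were higher after RNAi (6.94% of tested members, against 3.97% of all genes) and 18 were lower (12.5% of tested members, against 5.01% of all genes). An unadjusted p under 0.05 was found for 52 members (36.1%) and for 23.3% of all tested genes. The filter on low counts admits a gene through the group where it is high. Without a filter, edgeR called 10 of the 194 members higher and 22 lower, where 3.12% of all genes were higher and 3.79% lower. Every RNAi library lay above every control for 26 of the 144 tested members and below for 31, where the shares over all tested genes were 15.8% and 14.6%. The share above is close to that over all genes. The median log2 fold change of the tested members was 0.03, beside 0.02 over all tested genes. The number of members called higher was 4, 6 and 3 without control replicate 1, 2 or 3. Over all genes it fell as well, from 567 to 224, 229 and 242 in these fits.

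The called members moved by very unequal amounts. Summed over the 10 that rose, expression was 374, 432 and 511 CPM after RNAi against 237, 230 and 237 CPM in controls, most of it clec-65. Summed over the 18 that fell it was 35.6, 38.4 and 28.9 CPM after RNAi against 150, 133 and 161 CPM in controls, most of it clec-230. These sums are over genes chosen by their call and are a description only.

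**Figure D1:**
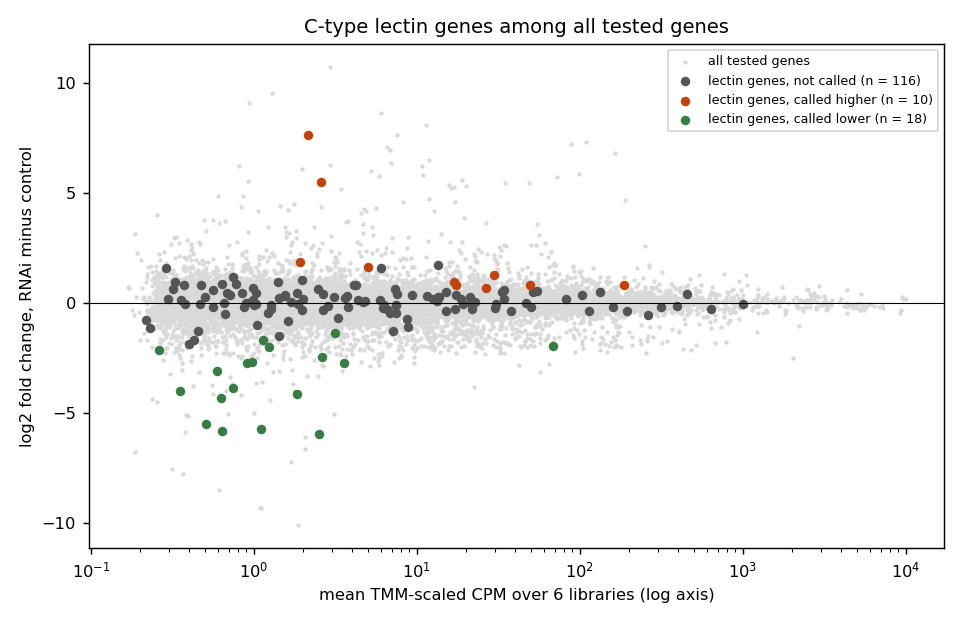
Log2 fold change (RNAi minus control) against mean TMM-scaled CPM over the 6 libraries (log axis), with all 14290 tested genes in grey and the 144 tested C-type lectin genes in colour. The 18 members called lower lie mostly at a few CPM or less, and the 6 most abundant members lie near 0.

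The strongest falls were in lectin genes that were nearly absent after RNAi. clec-219 had 0, 4 and 4 counts after RNAi against 176, 173 and 195 counts in controls, a ratio of control to RNAi of 64.6, for which counting error alone gives a 95% interval of 32.5 to 150. clec-94 had 0, 2 and 0 counts after RNAi against 52, 53 and 36 counts in controls, a ratio of 66.9 (interval 18.2 to 558). Each of these genes was detected in every control library and missing from at least 1 RNAi library. clec-207 had 4, 0 and 0 counts after RNAi against 80, 74 and 88 counts in controls, a ratio of 57.4 (interval 22.1 to 213). clec-95 had 0, 0 and 2 counts after RNAi against 30, 34 and 45 counts in controls, a ratio of 51.7 (interval 14 to 433).

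The adjusted p of these genes in edgeR was 0.000716 for clec-219, 0.00154 for clec-94, 0.00188 for clec-207 and 0.00352 for clec-95. Their fitted log2 fold changes, -5.96, -5.82, -5.74 and -5.47, are no bounds, because they lean on the handful of RNAi counts. That of clec-94 was -8.50 without RNAi replicate 2, that of clec-207 was -9.31 without RNAi replicate 1 and that of clec-95 was -8.21 without RNAi replicate 3. The calls stood in all these fits.

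A second set of fallen lectins kept some RNA after RNAi. clec-208 had 0.219, 0.239 and 0.125 CPM after RNAi against 4.05, 3.12 and 3.24 CPM in controls (log2 fold change -4.12, standard error 0.32, edgeR adjusted p = 0.00052). clec-197 had 0.71, 1.12 and 0.996 CPM after RNAi against 5.50, 5.91 and 7.32 CPM in controls (log2 -2.72, adjusted p = 0.000834). In both genes every RNAi library lay below every control library, with no overlap. clec-231 had 0.328, 0.213 and 0.249 CPM after RNAi against 1.35, 1.72 and 2.01 CPM in controls (log2 -2.67, adjusted p = 0.00221). clec-11 had 0.492, 1.33 and 0.591 CPM after RNAi against 4.23, 4.49 and 4.62 CPM in controls (log2 -2.45, adjusted p = 0.00422), with RNAi replicate 2 the highest of its group. Exons of clec-11 overlap an annotated gene on the other strand, and reads of the overlap cannot be assigned, because no source says whether strand was counted.

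clec-230 was the most abundant lectin gene that fell. It had 29.9, 31.9 and 23.7 CPM after RNAi against 114, 95 and 116 CPM in controls, which is 3.80-fold lower (log2 -1.93, standard error 0.17, edgeR adjusted p = 0.000716). The groups lie far apart beside their spread, at 28.5 ± 4.26 CPM after RNAi and 108 ± 11.6 CPM in controls (SD, n = 3 each). clec-126, at 1.80, 1.84 and 1.68 CPM after RNAi against 4.02, 4.59 and 4.98 CPM in controls, changed least among the members that fell (log2 -1.35, adjusted p = 0.00417). Its exons overlap those of the collagen gene col-72 on the other strand. Exon overlaps with other genes are also annotated for named members that were not called, among them clec-60, clec-85, clec-86 and clec-87.

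The other members that fell were all below 3 CPM in controls. clec-99 averaged 0.0554 ± 0.0255 CPM after RNAi and 1.20 ± 0.522 CPM in controls (SD, n = 3 each), and its control libraries held 24, 66 and 44 counts. clec-157 had 6, 4 and 0 counts after RNAi against 42, 63 and 52 counts in controls, a ratio of 14.9 (95% counting interval 7.89 to 31.7). clec-144 averaged 0.234 CPM after RNAi and 1.57 CPM in controls, and clec-92 averaged 0.497 CPM after RNAi and 1.97 CPM in controls. The edgeR adjusted p of these 4 genes was 0.0028, 0.00603, 0.00999 and 0.0042, in that order. The members that stood in every alternative that gave a value were 14 of the 18: all those named so far among the fallen genes.

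The calls of 4 fallen members were lost on leaving out single libraries. Those of clec-106 and clec-217 were also lost with replicate number as a block, and that of clec-217 without the filter on low counts. clec-124 had 0, 0 and 4 counts after RNAi against 28, 26 and 20 counts in controls, and its edgeR adjusted p of 0.0205 became 0.0776, 0.0727 and 0.0659 on leaving out control replicate 1, 2 or 3, and 0.0584 on leaving out RNAi replicate 2. clec-158 had 8, 0 and 5 counts after RNAi against 38, 40 and 40 counts in controls, and its adjusted p of 0.0245 became 0.0769, 0.0797 and 0.0895 on leaving out control replicate 1, 2 or 3, and 0.0541 on leaving out RNAi replicate 3. In each of these the RNAi and control counts do not overlap. clec-106 averaged 0.541 CPM after RNAi and 1.74 CPM in controls (adjusted p = 0.0376), and its call was lost without any of the controls, with adjusted p up to 0.149, and without RNAi replicates 2 and 3 (0.0648 and 0.0506). clec-217 had 4, 2 and 4 counts after RNAi against 22, 14 and 12 counts in controls (adjusted p = 0.039), and its call was lost without any 1 of the 6 libraries, with adjusted p up to 0.194.

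**Figure D2:**
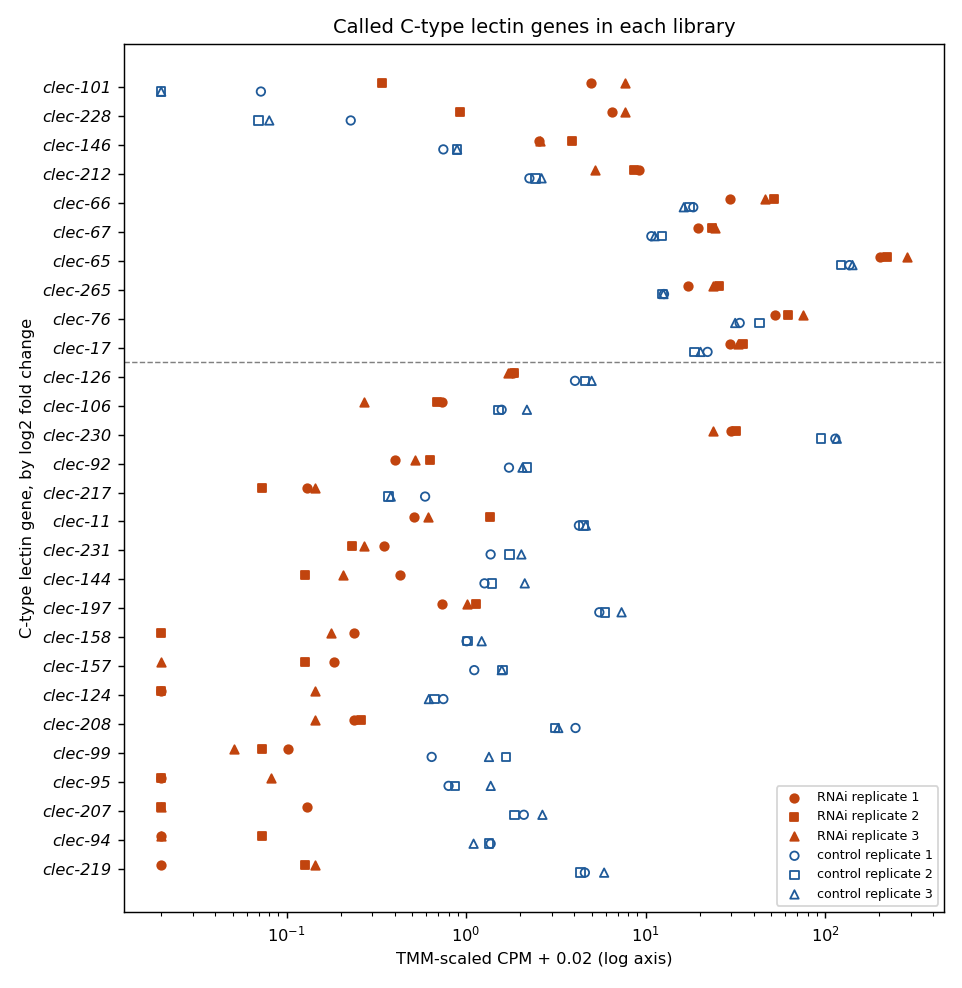
TMM-scaled CPM plus 0.02 (log axis) of the 28 called C-type lectin genes in each library, ordered by log2 fold change, with RNAi libraries filled and control libraries open, and marker shape giving the replicate. A dashed line divides the 10 genes that rose from the 18 that fell, and points at 0.02 hold 0 counts, as 2 of the 3 RNAi libraries do for clec-94, clec-95, clec-124 and clec-207.

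Most of the fallen members, though not clec-11, encode a short product, and length played no part in calling them. From the Ensembl release 115 annotation of assembly WBcel235, the 18 encode 168 to 417 residues with a median of 223, and 17 of them encode fewer than 300. The 10 that rose encode 189 to 469 residues with a median of 374, and 2 of them fewer than 300. Domains were not examined, so these lengths do not say how many C-type lectin domains a product holds.

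Among tested members with a length, 17 of 49 under 300 residues fell (34.7%) and 2 rose, while 1 of 84 longer ones fell (1.19%) and 8 rose. Over all tested genes the shares that fell were 6.81% under 300 residues and 3.55% above. The median log2 fold change was -0.26 for short members and 0.19 for longer ones. Several of the fallen members passed the count filter only through their controls, so these shares are a description. Over all members with a length, tested or not, every RNAi library lay below every control for 25 of 71 short members (35.2%) and above for 5 (7.04%). For 108 longer members it lay below for 17 (15.7%) and above for 24 (22.2%). Over all entries with at least 10 counts the shares were 16% below and 16.5% above under 300 residues, and 11.7% below and 13.9% above from 300 residues. The boundary of 300 residues was set after the values were seen, and the difference was not tested.

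**Figure D3:**
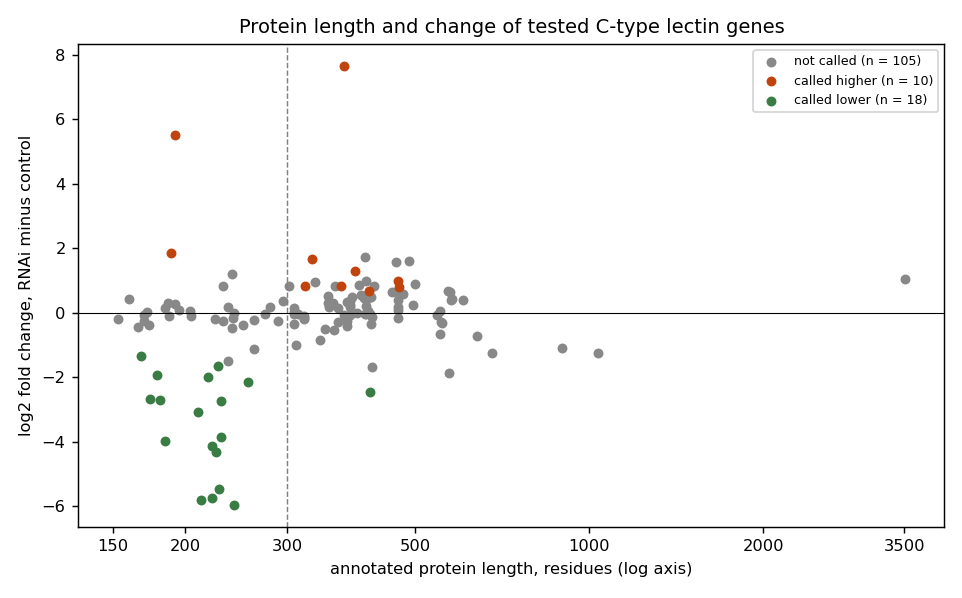
Log2 fold change (RNAi minus control) against annotated protein length in residues (log axis) for the 133 tested C-type lectin genes with a length. Left of the dashed line at 300 residues lie 17 of the 18 genes called lower, and right of it 8 of the 10 called higher.

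Short length alone did not mark a fall, since 30 short members were tested and not called. clec-47, with 160 residues, had the highest level per kilobase of exon after RNAi, at 1064, 1047 and 916 CPM per kilobase after RNAi against 703, 740 and 792 CPM per kilobase in controls. In controls clec-63 was above it, at 509, 877 and 901 CPM per kilobase after RNAi against 769.5, 763.9 and 814.4 CPM per kilobase in controls. The RNAi libraries of clec-47 lay above its controls, but clec-47 was not called (log2 0.44, standard error 0.13, edgeR adjusted p = 0.0798, and 0.034 with total counts as the only scaling). clec-87, with 233 residues, had 805, 498 and 516 CPM per kilobase after RNAi against 708, 681 and 765 CPM per kilobase in controls, with RNAi replicate 1 apart from the rest of its group. Its adjusted p was 0.519, and 0.0362 with a lower level after RNAi when that library was left out.

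Several fallen members sit side by side. In the RefSeq and Ensembl tables of WBcel235, clec-94 and clec-95 on chromosome I follow each other, as do clec-207 and clec-208 and also clec-230 and clec-231 on chromosome V, with no other protein-coding gene between them. All 6 of these genes fell. In the clec-94 run, clec-96 was not tested and had 0, 0 and 2 counts after RNAi against 12, 9 and 8 counts in controls, whereas clec-97, the last of the run, was not called (log2 0.26, edgeR adjusted p = 0.65). No source says how reads shared by similar neighbours were counted, so the values of adjacent copies are uncertain to that extent.

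Of 179 members placed in the gene order, 75 lie in 26 runs of 2 or more adjacent members, the longest with 5 genes, and most runs held no call. Non-lectin neighbours moved with some of the fallen members. Of 16 tested neighbours that are not lectins, 4 were lower and 1 was higher, where 5.01% of all genes were lower and 3.97% higher. C54C8.12 and the neuropeptide gene nlp-39, on either side of clec-11, were at 52.5 and 81.8 CPM after RNAi against 241 and 238 CPM in controls. C17F4.2 beside clec-124 averaged 9.60 CPM after RNAi and 37.5 CPM in controls, and C49C3.11 beside clec-197 averaged 0.367 CPM after RNAi and 3.04 CPM in controls (edgeR adjusted p from 0.000757 to 0.00711 for these 4 genes). The neighbour that rose was F26D11.2, next to clec-217 (log2 2.79, adjusted p = 0.00359).

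Members untested for low counts numbered 50, with 10 to 63 counts in all. Of these, 11 (22%) had every RNAi library below every control and 3 (6%) had every RNAi library above. Over all 2502 untested entries with counts in that range the shares were 8.15% below and 8.39% above. clec-133 and clec-135 had 0 counts in all RNAi libraries against 8, 14 and 22 and 8, 14 and 18 counts in controls, at least 13.9- and 12.7-fold lower against a floor of 3 counts over the group. clec-263 also had 0 counts after RNAi, against 18, 10 and 10 counts in controls, at least 12-fold lower. In the other direction clec-19 had 2, 2 and 16 counts after RNAi and 0 in controls, at least 7.02-fold higher. These genes have no p-value, and floors and intervals cover counting error only. The floors take the higher total as exact and are too low if both mates of a pair were counted. The folds given as at least are therefore no strict bounds.

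Of 18 members known from infection or other work 16 were tested, 4 were higher and 0 lower in edgeR, where 3.97% of all genes were higher. The 4 are clec-17, clec-65, clec-66 and clec-67, and since the 18 were listed with earlier results of these data known, nothing is read from the count. clec-67, a target of the p38 pathway, had 19.5, 23.5 and 24.5 CPM after RNAi against 10.7, 12.3 and 11.2 CPM in controls, 1.97-fold higher (log2 0.98, standard error 0.17, edgeR adjusted p = 0.00902). Its call was lost without control replicates 1 and 3, with adjusted p up to 0.0779. clec-60, induced by Staphylococcus aureus, had 190.7, 119.3 and 160.2 CPM after RNAi against 117, 107 and 107 CPM in controls, and was not called (log2 0.51, standard error 0.18, adjusted p = 0.13). Its RNAi libraries lay above its controls, with replicate 2 close to them, and without that library the adjusted p was 0.0204. clec-4, studied in Bacillus thuringiensis infection, had 5.63, 5.88 and 4.70 CPM after RNAi against 3.74, 2.59 and 2.76 CPM in controls, just outside the threshold (log2 0.83, adjusted p = 0.0517, and 0.0176 with DESeq2).

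The other infection-linked members were not called. clec-41 and clec-42, also studied with Bacillus thuringiensis, had edgeR adjusted p of 0.91 and 0.687 and log2 fold changes of -0.06 and -0.30. clec-85, another p38-dependent gene, averaged 19.8 CPM after RNAi and 17.5 CPM in controls (adjusted p = 0.61). It has 2 annotated transcripts, and its exons overlap those of Y54G2A.40 on the same strand. clec-70 and clec-71, induced by Staphylococcus aureus, gave log2 fold changes of 0.18 and 0.39 (adjusted p = 0.629 and 0.419), and clec-49, studied with Serratia marcescens, gave -0.15 (adjusted p = 0.538). clec-39, linked to the same bacterium, and clec-38, linked to netrin signalling in axons, had too few counts to be tested, with at most 0.249 CPM in any library. Other members known from earlier work gave log2 fold changes of -0.03 for clec-7, -0.34 for clec-52 and -0.45 for clec-86 (adjusted p from 0.169 to 0.952). Of these clec-52 had every RNAi library below every control, at 109, 98.5 and 93.2 CPM after RNAi against 132, 113 and 137 CPM in controls.

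clec-65 and clec-66, adjacent on chromosome II, rose together. clec-65 had 203, 221 and 286 CPM after RNAi against 136.7, 122.4 and 141.9 CPM in controls (log2 0.83, standard error 0.16, edgeR adjusted p = 0.0149). clec-66 had 29.4, 51.5 and 45.9 CPM after RNAi against 18.4, 17.5 and 16.3 CPM in controls (log2 1.281, standard error 0.22, adjusted p = 0.0087). In neither did the groups overlap, and RNAi replicate 1 was the lowest of its group in both. The call of clec-65 was lost without any of the controls (adjusted p up to 0.0938) and that of clec-66 without control replicate 3 (0.0524). The preceding genes of the run were not called: clec-64 had a log2 fold change of -0.06, and clec-63, the most abundant member by CPM, had 660, 1138 and 1169 CPM after RNAi against 998, 991 and 1056 CPM in controls (adjusted p = 0.937).

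**Figure D4:**
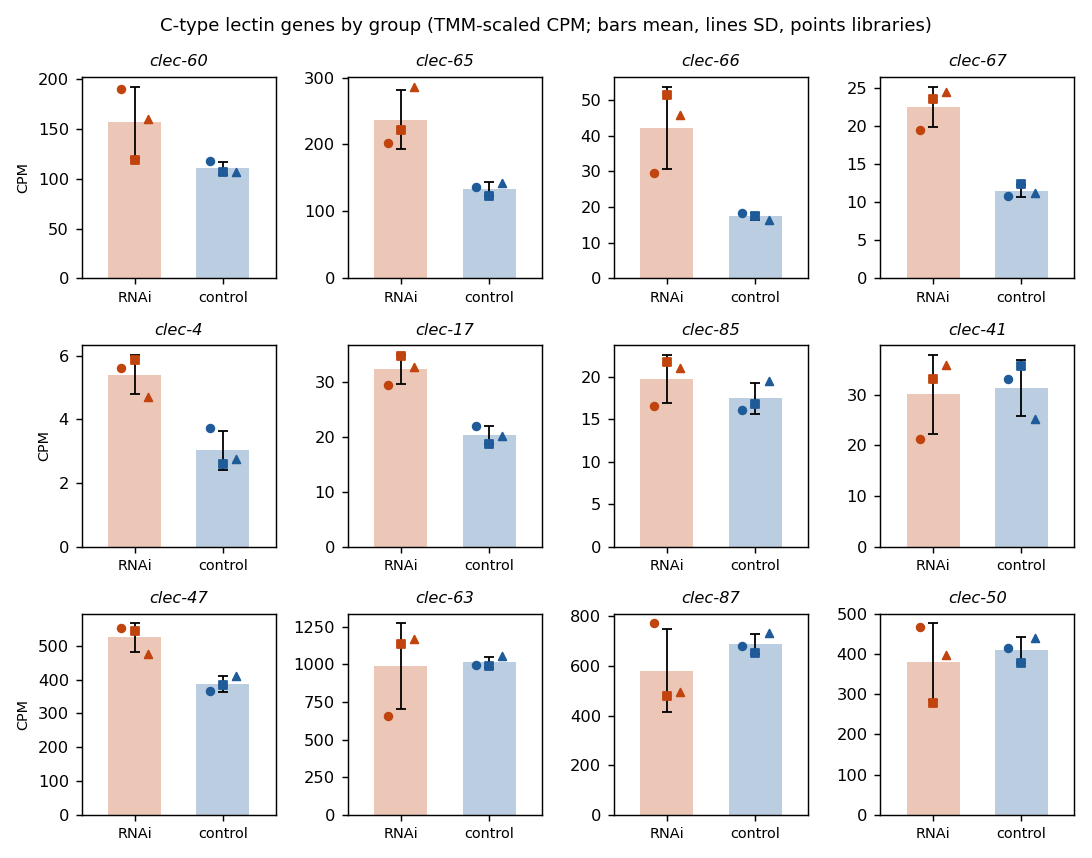
TMM-scaled CPM of 12 C-type lectin genes in RNAi and control libraries, with bars at the mean, lines for the SD and points for the 3 libraries of each group, marker shape giving the replicate. clec-65, clec-66, clec-67 and clec-17 were called higher, and RNAi replicate 1 lies apart in clec-63 and clec-87.

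The rises of clec-212 and clec-146 were larger than those of clec-65 and clec-66. clec-212 had 9.18, 8.56 and 5.20 CPM after RNAi against 2.23, 2.42 and 2.61 CPM in controls, 3.16-fold higher (log2 1.66, standard error 0.25, edgeR adjusted p = 0.00485). clec-146 had 2.54, 3.88 and 2.55 CPM after RNAi against 0.726, 0.872 and 0.87 CPM in controls, 3.64-fold higher (log2 1.86, standard error 0.27, adjusted p = 0.00414). Of the 10 calls higher these 2 were the ones that stood in every alternative that gave a value. clec-146 and clec-67 each have 2 annotated transcripts, and genes with several transcripts are often listed at 0 in these files. Whether the CPM of both genes are too low was not tested.

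Further rises, of clec-17, clec-76 and clec-265, were below 2-fold. clec-17 averaged 32.4 ± 2.61 CPM after RNAi and 20.3 ± 1.69 CPM in controls, clec-76 averaged 63.2 ± 11.3 CPM after RNAi and 36.0 ± 6.20 CPM in controls, and clec-265 averaged 22.2 ± 4.40 CPM after RNAi and 12.5 ± 0.14 CPM in controls (SD, n = 3 each). The edgeR adjusted p was 0.0334, 0.0317 and 0.0326, in that order. The groups do not overlap in any of these genes. All were lost without control replicates 1 and 3 and without RNAi replicates 2 and 3, and clec-17 and clec-265 also without control replicate 2, with adjusted p up to 0.168, 0.154 and 0.157.

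Both of the largest rises were from near silence and were uneven among the RNAi libraries. clec-101 had 180, 12 and 246 counts after RNAi against 2, 0 and 0 counts in controls, a ratio of RNAi to control of 231, for which counting error alone gives a 95% interval of 63.5 to 1911. clec-228 had 238, 34 and 246 counts after RNAi against 8, 2 and 2 counts in controls. RNAi replicate 2 was far below the other RNAi libraries in both genes, though still above all controls. The fitted log2 fold change of clec-228 was 5.51 with a standard error of 0.91 (edgeR adjusted p = 0.00711, and 0.0897 in limma-voom). That of clec-101 was 7.66 with a standard error of 1.44 (adjusted p = 0.0128), it became 10.27 without control replicate 1, and the call was lost without any of the controls, with adjusted p up to 0.06, and in limma-voom (0.112). wrt-7, a hedgehog-related gene next to clec-228, was also higher (log2 5.19, adjusted p = 0.00591). nspb-11, next to clec-66, was lower (log2 -2.19, adjusted p = 0.00711), and of 9 tested neighbours of risen members that are not lectins these 2 were called.

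RNAi replicate 2 stood apart in members that were not called as well, in either direction. clec-169 had 12.5, 1.54 and 13.0 CPM after RNAi against 2.80, 2.64 and 3.54 CPM in controls (edgeR adjusted p = 0.178), so that this library lay below the controls and the others above. clec-3 had 8.22, 46.1 and 7.53 CPM after RNAi against 7.08, 5.91 and 5.82 CPM in controls (adjusted p = 0.156), and here replicate 2 was the high one. The part of that library in these values beyond its omission was not tested. In all, 116 tested members were not called, 65 with a positive and 51 with a negative log2 fold change, and 12 of them had an adjusted p under 0.1.

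Galectins are the other main family of sugar-binding lectins in the worm. Of 12 genes 8 were tested, 3 were higher and 1 was lower in edgeR, where 3.97% of all genes were higher and 5.01% lower. lec-5 had 1368, 1315 and 1148 CPM after RNAi against 620, 604 and 654 CPM in controls, 2.04-fold higher (log2 1.03, standard error 0.14, adjusted p = 0.00267). lec-10 had 132, 165 and 164 CPM after RNAi against 73.0, 69.1 and 76.1 CPM in controls (log2 1.08, adjusted p = 0.00234). lec-8 averaged 200 ± 32.1 CPM after RNAi and 104 ± 6.72 CPM in controls (adjusted p = 0.00632). lec-7 was the one that fell, to 22.5, 16.7 and 17 CPM after RNAi against 44.2, 37.5 and 37.8 CPM in controls (log2 -1.09, adjusted p = 0.00706). The calls of lec-8 and lec-7 were lost without control replicate 1 (adjusted p = 0.058 and 0.0523). The median log2 fold change of the tested galectins was 0.36, beside 0.02 over all genes.

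**Figure D5:**
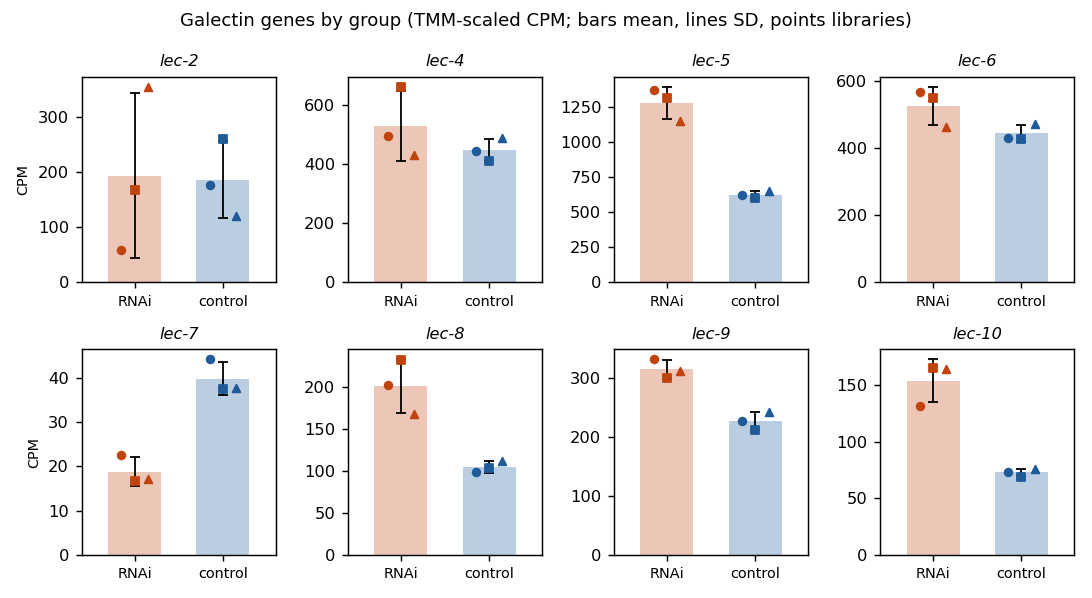
TMM-scaled CPM of the 8 tested galectin genes in RNAi and control libraries, with bars at the mean, lines for the SD and points for the 3 libraries of each group. lec-5, lec-8 and lec-10 were called higher and lec-7 lower, and lec-2 varies widely within both groups.

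Genes that act upstream of inducible lectins could be read only in part. Of 15 genes of the p38 pathway and related factors 6 were tested and 0 were called in edgeR, where 8.98% of all genes were called. Without adjustment 2 of them, sek-1 and zip-2, had p under 0.05, as did 23.3% of all genes. All 6 log2 fold changes were positive, with a median of 0.37, where 7420 of 14290 were positive over all genes. For sek-1, zip-2 and elt-2 every RNAi library lay above every control, as for 15.8% of all genes. elt-2 is also in the list of intestine markers below. pmk-1, the p38 kinase, averaged 49.7 ± 9.26 CPM after RNAi and 40.2 ± 0.58 CPM in controls, and sek-1, the kinase above it, averaged 73.7 ± 24.8 CPM after RNAi and 47.8 ± 2.06 CPM in controls (SD, n = 3 each; adjusted p = 0.313 and 0.133). Another 8 genes of the list, among them daf-16, hlh-30, nsy-1 and atf-7, are listed at 0 in all libraries. Each of these 8 has 2 or more annotated transcripts, and 38.4% of protein-coding genes with 2 or more transcripts are at 0 in these counts, against 7.07% of those with 1. Of 25 clec genes with 2 or more transcripts 8 are at 0, so their absence from the members is no measure of their expression.

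Among other effectors of the infection response 10 of 13 genes found were tested, 2 were higher and 0 lower, where 3.97% of all genes were higher and 5.01% lower. irg-4, a p38-dependent gene, averaged 22.7 ± 5.32 CPM after RNAi and 9.90 ± 0.55 CPM in controls (SD, n = 3 each; edgeR adjusted p = 0.00818, with 0.0531 when control replicate 2 was omitted and 0.0505 when control replicate 3 was). dod-24, which responds to infection and to insulin signalling, had 23.1, 46.6 and 25.8 CPM after RNAi against 9.05, 11.2 and 10.5 CPM in controls (adjusted p = 0.00839). irg-5, another p38-dependent gene, had 15.4, 13.5 and 20.2 CPM after RNAi against 23.3, 25.5 and 20.7 CPM in controls and was not called (adjusted p = 0.171).

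Markers of some tissues also differed between the groups. Summed pharynx markers were at 103 to 120 CPM after RNAi against 231 to 244 CPM in controls, with 3 of 8 tested markers lower, phat-1, phat-2 and tnc-2, where 5.01% of all genes were lower. tnc-2 alone averaged 70.1 CPM after RNAi and 173 CPM in controls, and phat-3 and pha-4 had positive log2 fold changes of 0.45 and 0.72 without a call. Summed epidermis markers were at 1303 to 1732 CPM after RNAi against 2012 to 2276 CPM in controls, with 3 of 5 lower, the collagen genes dpy-7 and rol-6 and the hedgehog-related gene wrt-2, while elt-1 and lin-26 are listed at 0. The remaining tested epidermis markers, elo-6 and grd-10, had log2 fold changes of 0.13 and 0.24 without a call. Both sums lie below the controls, as do the fallen lectins, which were chosen for that direction. The part of these tissues in the lectin values was not tested. Summed intestine markers were at 694 to 1078 CPM after RNAi against 638 to 658 CPM in controls, with ifb-2 listed at 0. Most of this sum was act-5, uncalled at 414, 709 and 404 CPM after RNAi against 359, 343 and 372 CPM in controls. In edgeR 0 of 9 intestine markers were called, against 8.98% of all tested genes. Before adjustment 3 of them reached p under 0.05, beside 23.3% of all tested genes, and they did not share a direction. ges-1 and inx-16 were higher (log2 0.31 and 0.44) and elt-7 was lower (log2 -0.51).

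The remaining marker lists held few calls. Sperm markers summed to 60.6 to 77.3 CPM after RNAi against 48.0 to 54.8 CPM in controls. Of 9 tested, 1 was higher, gsp-3, where 3.97% of all genes were higher. Its adjusted p in edgeR was 0.0304, and the call was lost on leaving out any 1 of the controls (up to 0.183). Oocyte markers summed to 989 to 1384 CPM after RNAi against 1179 to 1587 CPM in controls. Muscle markers summed to 2000 to 2568 CPM after RNAi against 1675 to 1763 CPM in controls. Neuron markers summed to 966 to 1413 CPM after RNAi against 953 to 1069 CPM in controls, and coelomocyte markers to 24.8 to 34.2 CPM after RNAi against 32 to 35.2 CPM in controls. In these 4 lists 0 markers were called in edgeR, and 1 oocyte marker, 1 muscle marker and 0 others had an unadjusted p under 0.05.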

How the data were processed

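Groups and replicate numbers came from the sample titles. The title of RNAi replicate 3 spells the gene y54g21.18, read here as a slip for y54g2a.18. The authors deposited raw counts per gene, with no normalization, and each column was matched to its library by the name in the labels. Per the submitters' processing notes, which assign no roles, the tools include HISAT2 2.2.1, DESeq2 1.16.1, FastQC 0.11.9 and featureCounts 1.28.1. No source used here states the build, annotation, strand setting or handling of shared reads. Of 46903 entries 12 had a date in place of a name and were dropped, with 0.0247% of counts at most. Of count values from 1 to 20, 71.5% were even (83.9% among the members), as when both mates of a pair are counted, so counting intervals and floors are too narrow.

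In R 4.3.3, edgeR 4.0.16 (quasi-likelihood F test, group as the sole term) was run on all genes that passed filterByExpr (minimum count 10, minimum total 15), with trimmed-mean (TMM) scaling and Benjamini-Hochberg adjustment over all tested genes. Standard errors are the absolute log2 fold change over the square root of F, and so approximate. Counting intervals are exact (Clopper-Pearson) at 95%, and floors are 3 counts over a group. CPM per kilobase uses exon lengths of Ensembl release 115, and lengths and gene order come from assembly WBcel235, with no coordinates given because the build of the files is unknown. The fit was tested on simulated data over 14290 genes, where 33% of 2-fold and 92% of 4-fold changes were recovered, 0 in the wrong direction.

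The members, the gene lists and the rule for naming genes (targets, all called members, the 6 most abundant, 18 members known from other work, called genes of the other lists) were chosen with earlier results of these data known. Neighbours, untested members, uncalled list genes and the uncalled members clec-3, clec-64, clec-96, clec-97 and clec-169 were named after their values were seen. Alternatives were other scalings (DESeq2 size factors, total counts, upper-quartile), no filter, a minimum of 1 CPM in 3 libraries, DESeq2 1.42.0, limma-voom (limma 3.58.1), the replicate block and leaving out each library, and, added after seeing the data, only genes with 1 annotated transcript. The list names T24B8.5 and opt-2 were not found. The 6 columns of the rpoa-49 table were not used, since its names follow human gene style and its counts are too few to test, and so the planned comparison there was not run.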

Additional observations from a re-analysis of the deposited data

How the results depend on the processing

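The number of C-type lectin genes called lower stayed within 1.5 times of 18 in all 15 alternatives, at 14 to 23 when a library was left out. The number called higher was 3 to 12 when a library was left out and within 1.5 times of 10 in the other 9. Of the members called at first, the lower ones kept numbered 13 to 18 of 18 and the higher ones 3 to 10 of 10. Over all genes, 224 to 912 were called higher and 422 to 1185 lower when a library was left out, with RNAi replicate 1 giving the most and each control replicate far fewer, and 364 higher with the replicate block. The cause was not tested. The median log2 fold change of the lectin genes ran from -0.08, without RNAi replicate 3, to 0.08, and was -0.03 with genes of 1 annotated transcript only. Y54G2A.18 stayed called lower, with a log2 fold change from -1.83 to -1.28 when a library was left out. No named gene changed direction with a call, and 16 named genes lost a call in at least 1 alternative, 15 of them by the omission of a library. The replicate numbers did not pair the samples: deviations of same-numbered libraries from their group means correlated at -0.0064, 0.0492 and -0.499, and of the RNAi libraries only replicate 2 correlated best with its own number. RNAi replicate 1 with control replicate 3 gave 0.524 and RNAi replicate 3 with control replicate 2 gave 0.536, the libraries of least and most ribosomal RNA in each group, whose part was not tested. With the replicate block 7 lectin genes were higher and 16 lower. Leaving out near-identical members was not run, because protein sequences were not used here. Values under about 0.1 CPM rest on 4 counts or fewer, so lectin genes that low are hard to separate at this depth.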
